A study of Mus musculus with 12 samples.

Results

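Interferon-stimulated genes and the factors that switch them on were followed in mouse preosteoblasts grown with or without osteoclasts. The group held 9 named genes, taken from the mouse gene symbols of the count tables: the antiviral effectors Ifit1, Ifit2, Ifit3, Isg15 and Bst2, and the transcription factors Irf1, Irf7, Irf9 and Stat2. All 9 were among the 52654 genes shared by the libraries, and 7 of them were among the 13340 genes with enough counts to be tested. Ifit3 and Isg15 fell below the low-count filter. Ifit1 passed it only through the 6 co-culture libraries, so its place among the tested genes already required a difference. Irf7 passed it in 2 co-culture and 4 isolated libraries, none of them a co-culture library on nanotopography.

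The cells were MC3T3-E1 subclone 14, an established preosteoblast line from mouse calvaria that forms mineralised matrix in culture. They grew for 7 days in osteogenic medium on titanium discs. There were 4 groups of 3 libraries, described by the submitters as biological triplicates: cells on titanium with nanotopography under osteoclasts, cells on nanotopography without osteoclasts, cells on control titanium under osteoclasts, and cells on control titanium without osteoclasts. The osteoclasts were made from RAW 264.7 cells, a mouse macrophage line, with RANKL at 50 ng/mL. They sat in inserts with pores of 0.4 µm and shared the medium with the preosteoblasts for the last 2 days. The co-culture groups therefore differed from the isolated groups in the osteoclasts, the insert and the osteoclast-forming medium together, and these cannot be told apart. RNA was taken from the preosteoblasts. Total counts ran from 5866842 to 9207831 per library. In bulk RNA, more cells that express a gene and more RNA of that gene per cell cannot be told apart.

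Interferons bind receptors on the cell surface, and the receptor of type I interferon acts through the kinases Jak1 and Tyk2. With type I interferon, a complex that holds Stat2 and Irf9 binds a repeat called the interferon-stimulated response element, ISRE, in front of genes such as Ifit1 and Isg15. Interferon gamma acts through a different element, GAS, in front of genes such as Irf1. In bone, RANKL makes osteoclast precursors produce interferon beta, which restrains their differentiation.

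The promoters of the members are shown because these elements are what ties several of them to the pathway. RefSeq promoter windows of 300 bases (GRCm38.p6) were found for all 9 members, 12 windows in all, since some genes have more than 1 start. They were searched on both strands for GAAANNGAAA, the core of the ISRE, and for TTCNNNGAA, the GAS core. The ISRE core was in windows of 5 of the 9 members, Ifit1, Ifit3, Isg15, Bst2 and Stat2, and in 3.44% of all 32851 windows. The GAS core was in windows of Irf1, Ifit2 and Bst2, and in 8.30% of all windows. In Bst2 the GAS core overlapped the first ISRE repeat. No match lay in the windows of Irf7 and Irf9. In the lines that follow, each sequence is read 5′ to 3′ on the strand of its gene, and capitals mark the stretch that matched the ISRE core or, in Irf1, the GAS core; TTTCNNTTTC is the ISRE core read from the other strand.
Ifit1, chr19:34640749-34640849, plus strand: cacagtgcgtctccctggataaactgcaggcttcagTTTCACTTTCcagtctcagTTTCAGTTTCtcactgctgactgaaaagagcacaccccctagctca
Ifit3, chr19:34583337-34583452, plus strand: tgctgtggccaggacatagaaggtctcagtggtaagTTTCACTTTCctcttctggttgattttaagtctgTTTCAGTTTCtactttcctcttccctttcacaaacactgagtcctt
Isg15, chr4:156200839-156200932, minus strand: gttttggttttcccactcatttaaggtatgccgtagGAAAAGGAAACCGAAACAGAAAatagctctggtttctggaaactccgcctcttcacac
Bst2, chr8:71537551-71537638, minus strand: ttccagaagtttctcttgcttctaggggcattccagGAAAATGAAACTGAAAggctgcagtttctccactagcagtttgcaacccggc
Stat2, chr10:128270248-128270321, plus strand: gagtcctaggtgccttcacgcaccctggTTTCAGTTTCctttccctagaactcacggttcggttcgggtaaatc
Irf1, chr11:53769888-53769968, plus strand: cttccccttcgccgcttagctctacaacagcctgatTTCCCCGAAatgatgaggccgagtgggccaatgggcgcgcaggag
Ifit1 and Ifit3 share the letters TTTCAGTTTC and TTTCACTTTC, each gene with 1 copy of either. Isg15 had 3 overlapping matches and Bst2 had 2.

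Under osteoclasts, Irf9 rose on both surfaces. Ifit1 was higher on both as well, with the limit on its test given above. Without a correction for GC content, described below, the other members were called on 1 surface or on none. Levels are given as CPM, counts scaled to a common total after TMM normalization of the libraries. Sums over cell type markers are in CPM of the plain library totals, without TMM. Differences were tested with edgeR's quasi-likelihood test over all 13340 genes, and a gene was called at a Benjamini-Hochberg adjusted p below 0.05. With co-culture on nanotopography, 3 of the 7 tested members were higher, 1 was lower and 3 were not called. In the same comparison 59.2% of all tested genes were called (28.7% higher and 30.4% lower), so the share of members called was close to the background. With the correction for GC content and length 4 members were higher and none lower there, where 39.7% of all tested genes were called (19.0% higher and 20.8% lower). With co-culture on control titanium, 3 members were higher, none was lower and 4 were not called, where 19.7% of all tested genes were called (10.9% higher and 8.72% lower). With the correction these counts were the same, where 27.1% of all tested genes were called (15.3% higher and 11.8% lower). The median log2 fold change of the tested members was 0.17 on nanotopography and 0.56 on control titanium, against 0.00 and -0.02 over all tested genes, and 0.61 and 0.48 with the correction. These counts and medians include Ifit1 and Irf7 and are given as a description.

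Ifit1 binds foreign RNA at its capped end and blocks its translation. On nanotopography its levels were 2.27, 4.07 and 2.59 CPM under osteoclasts, against 0, 1.18 and 0 CPM in isolated cells. On control titanium they were 3.35, 3.21 and 2.56 CPM under osteoclasts, against 0.391, 0.233 and 0.168 CPM in isolated cells. Every co-culture library lay above every isolated library, and of the isolated libraries the second on nanotopography, with 8 counts, was the highest. The log2 fold change was 2.77 ± 0.63 (SE) on nanotopography (edgeR adjusted p = 0.00126) and 3.42 ± 0.65 on control titanium (edgeR adjusted p = 0.00151), a fitted fold of 6.81 and 10.7. Both rest on few reads, 65 counts under osteoclasts against 8 in isolated cells on nanotopography and 71 against 6 on control titanium. Fitted without the low-count filter, over 26100 genes, the values were 2.76 and 3.40 (edgeR adjusted p = 7.23e-07 and 1.55e-08). Without the second isolated library on nanotopography, the isolated cells there had 0 counts left and no fold is given. The surface itself gave no called difference in Ifit1 in either culture, with a log2 fold change for nanotopography over control of -0.03 ± 0.43 under osteoclasts and 0.62 ± 0.97 in isolated cells (edgeR adjusted p = 0.965 and 0.697).

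**Figure D1:**
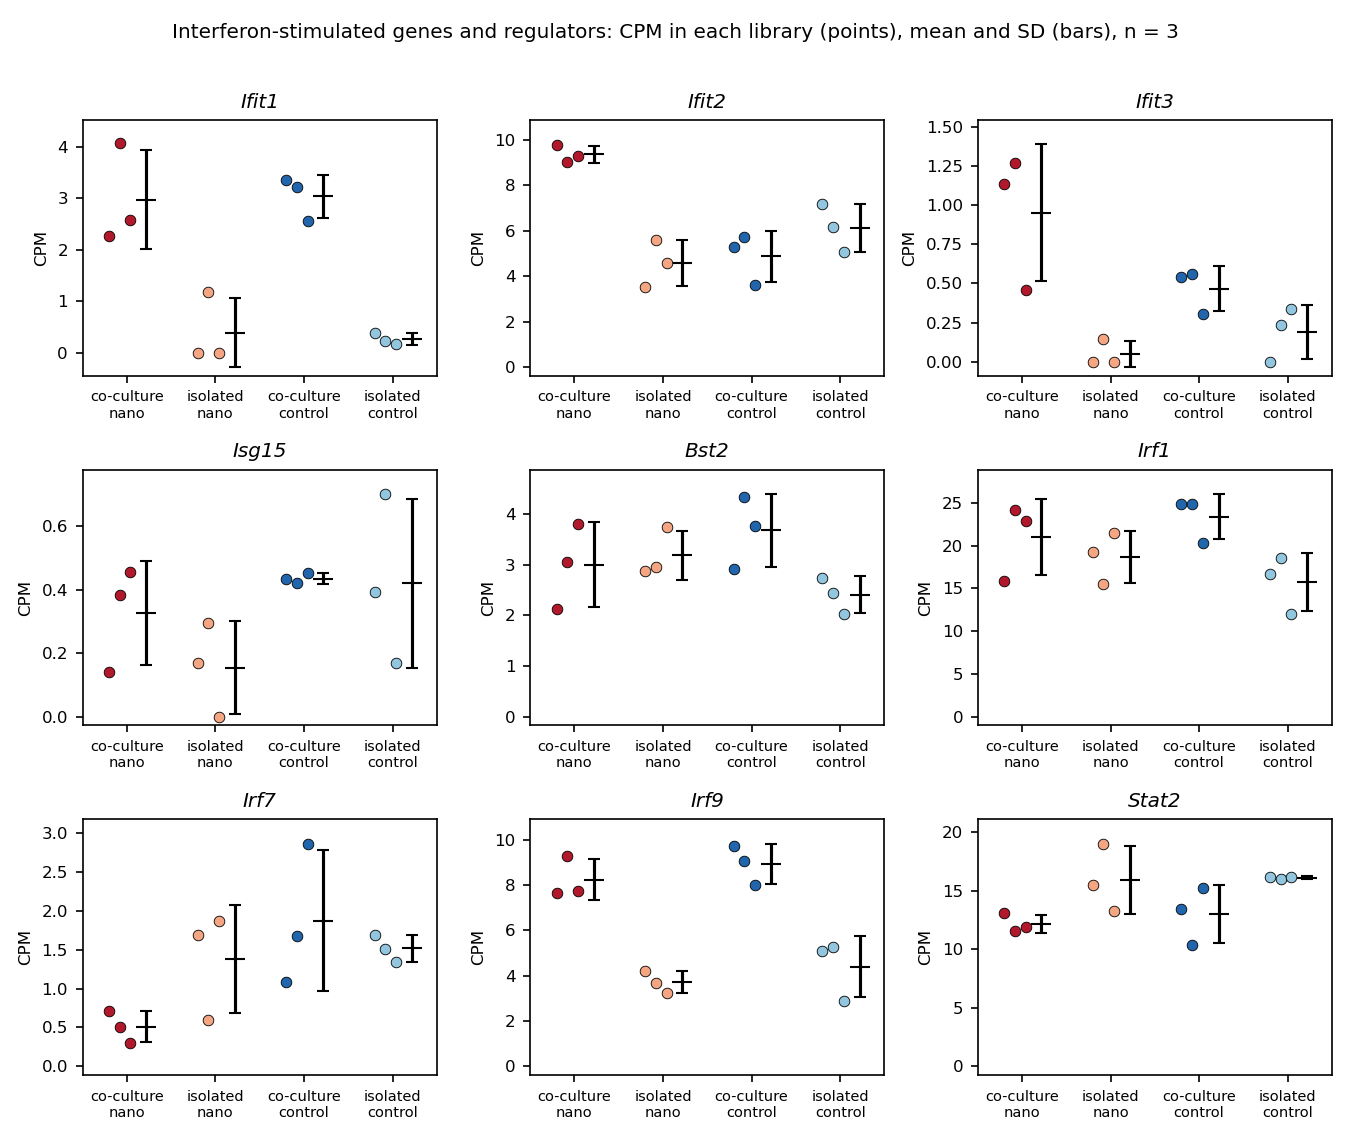
Levels of the 9 members in CPM (vertical axis, linear) in each library, with 1 point per library and bars for the mean and SD of 3 libraries. Ifit1 and Irf9 lie higher in all 6 co-culture libraries than in all 6 isolated libraries, Ifit2 is highest in the 3 co-culture libraries on nanotopography, and Irf7 is lowest on average there.

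Ifit2, a related RNA-binding protein, followed another course. It had 9.79, 9.03 and 9.28 CPM under osteoclasts on nanotopography, against 3.54, 5.59 and 4.59 CPM in isolated cells there. On control titanium it had 5.30, 5.73 and 3.62 CPM under osteoclasts, against 7.18, 6.18 and 5.05 CPM in isolated cells. Only the co-culture group on nanotopography stood apart, above the other 9 libraries, and the groups on control titanium overlapped. Co-culture raised Ifit2 on nanotopography by 1.02 ± 0.23 on the log2 scale (edgeR adjusted p = 9.65e-04), while on control titanium the log2 fold change was -0.33 ± 0.23 (edgeR adjusted p = 0.327). The difference between these effects was 1.35 ± 0.32 (edgeR adjusted p = 0.00277), and within co-culture Ifit2 was higher on nanotopography than on control titanium by 0.93 ± 0.22 (edgeR adjusted p = 0.00354).

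The calls of Ifit2 were lost when the counts were corrected for the GC content and length of the transcripts. With co-culture on nanotopography, fold changes moved with GC content across all genes. Against isolated cells, the median log2 fold change was 1.01 for genes below 40% GC and -1.34 for genes above 60% GC. For nanotopography over control titanium these medians were 0.67 and -0.92 within co-culture. In isolated cells they tilted the other way, at -0.57 and 0.29. The exons of Ifit2 are 42.0% GC. After the correction its log2 fold change was 0.42 for co-culture on nanotopography (edgeR adjusted p = 0.106), 0.53 for nanotopography within co-culture (edgeR adjusted p = 0.0583) and 0.64 for the difference between the co-culture effects (edgeR adjusted p = 0.116). Ifit1, at 43.3% GC, kept its calls with the correction, with 2.34 on nanotopography and 3.52 on control titanium (edgeR adjusted p = 0.00524 and 3.23e-04).

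Ifit3, a partner that binds Ifit1 in human cells, was near the limit of detection. It had 8, 10 and 3 counts under osteoclasts on nanotopography, against 0, 1 and 0 counts in isolated cells. On control titanium it had 5, 4 and 2 counts under osteoclasts, against 0, 2 and 2 in isolated cells. On nanotopography every co-culture library was above every isolated library, and on control titanium the groups met at 2 counts. The summed counts gave a ratio of 18.2 on nanotopography (95% interval 2.93 to 752) and 2.65 on control titanium (0.785 to 11.4), with intervals that cover counting error only. An exact two-sided permutation test of the CPM within surfaces over 400 arrangements gave p = 0.01, where the smallest p possible is 0.005. When all genes with any count were tested without the filter, Ifit3 was higher under osteoclasts on nanotopography by 3.78 ± 1.10 (edgeR adjusted p = 0.00275). In that test 30.2% of 26100 genes were called. By the same fit Ifit3 was not called on control titanium, with 1.29 ± 0.94 (edgeR adjusted p = 0.513), nor was the difference between the co-culture effects, with 2.49 ± 1.63 (edgeR adjusted p = 0.327).

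Ifit2, Ifit3 and Ifit1 lie in this order on the plus strand of a cluster of 6 Ifit genes at chr19:34550694-34650009 (GRCm38), which spans 99.3 kb. Ifit3b, a near copy of Ifit3, had 8 counts under osteoclasts and 0 in isolated cells on nanotopography, and 3 and 0 on control titanium. It shares 51.2% of the 50-base windows of the exons of Ifit3, so reads of these genes may have been split or dropped in counting. Ifit1 shares 7.06% of its windows with Ifit1bl2 and 0.614% with Ifit1bl1, which had at most 4 counts in any group, and Ifit1, Ifit2 and Ifit3 share none with each other.

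**Figure D2:**
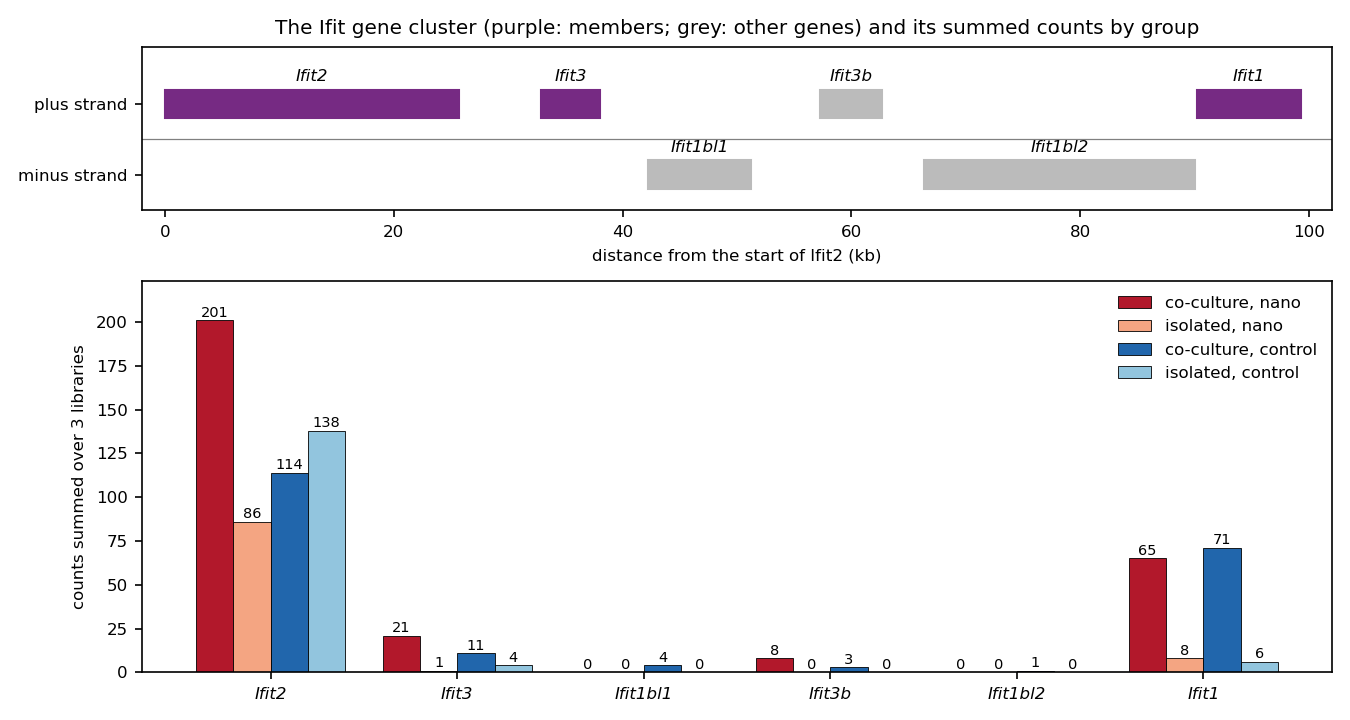
The Ifit gene cluster in kb from the start of Ifit2 (upper part, with 1 box per gene on its strand) and the counts of each gene summed over 3 libraries (lower part, bars from 0). Ifit1 had 65 and 71 counts in the co-culture groups against 8 and 6 in the isolated groups, and Ifit2 reached 201 counts under osteoclasts on nanotopography.

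Isg15, a ubiquitin-like protein that is attached to other proteins, was not detectably different at this depth. It had 1, 3 and 3 counts under osteoclasts on nanotopography, against 1, 2 and 0 in isolated cells, and 4, 3 and 3 counts under osteoclasts on control titanium, against 3, 6 and 1 in isolated cells. All groups overlapped. The ratio of summed counts was 2.02 on nanotopography (95% interval 0.461 to 12.1) and 0.963 on control titanium (0.360 to 2.58), and the exact permutation test gave p = 0.355.

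Bst2, also called tetherin, holds budding viruses at the cell surface. On nanotopography it had 2.13, 3.05 and 3.80 CPM under osteoclasts, against 2.86, 2.94 and 3.74 CPM in isolated cells. On control titanium it had 2.92, 4.33 and 3.77 CPM under osteoclasts, against 2.74, 2.45 and 2.02 CPM in isolated cells. The groups overlapped on nanotopography and did not on control titanium, and neither comparison passed the test, with log2 fold changes of -0.09 ± 0.29 and 0.58 ± 0.29 (edgeR adjusted p = 0.808 and 0.163). With the GC and length correction Bst2, at 55.3% GC, was called higher on nanotopography, with 0.71 (edgeR adjusted p = 0.0493).

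Among the regulators, Irf9 changed most evenly. Irf9 is the DNA-binding part of the complex with Stat2. On nanotopography it had 7.66, 9.29 and 7.76 CPM under osteoclasts, against 4.21, 3.68 and 3.23 CPM in isolated cells. On control titanium it had 9.73, 9.08 and 7.99 CPM under osteoclasts, against 5.09, 5.25 and 2.86 CPM in isolated cells. The 6 co-culture libraries lay above the 6 isolated libraries. The log2 fold change was 1.15 ± 0.23 on nanotopography (edgeR adjusted p = 4.96e-04) and 1.00 ± 0.22 on control titanium (edgeR adjusted p = 0.00414), a fold of 2.22 and 1.99. The difference between these effects was 0.16 ± 0.32 (edgeR adjusted p = 0.71). With the correction for GC and length the values were 1.28 and 0.92 (edgeR adjusted p = 2.09e-04 and 0.00304). Irf9 overlaps its neighbour Rnf31 by 123 bases on the same strand, where reads cannot be assigned to either gene, and Rnf31 had 863 counts in all 12 libraries.

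Stat2, the partner of Irf9, did not rise with it. It had 13.1, 11.6 and 11.9 CPM under osteoclasts on nanotopography, against 15.5, 19.0 and 13.3 CPM in isolated cells, and 13.4, 10.3 and 15.2 CPM under osteoclasts on control titanium, against 16.2, 16.0 and 16.2 CPM in isolated cells. On each surface all co-culture libraries were below all isolated libraries, yet neither difference passed the test, with log2 fold changes of -0.39 ± 0.17 and -0.31 ± 0.16 (edgeR adjusted p = 0.0545 and 0.197). Without the third isolated library on nanotopography the first of these was -0.52 and passed the test (edgeR adjusted p = 0.0258). With the correction for GC and length the values were -0.16 and -0.39 (edgeR adjusted p = 0.482 and 0.0813).

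Irf1, a factor that interferon gamma induces through the GAS element shown above, was called higher under osteoclasts on control titanium, with a log2 fold change of 0.56 ± 0.19 (edgeR adjusted p = 0.0424). It had 24.9, 24.9 and 20.3 CPM under osteoclasts on control titanium, against 16.7, 18.5 and 11.9 CPM in isolated cells, and these groups did not overlap. With the correction for GC and length it was 0.48 (edgeR adjusted p = 0.0355). The call was lost without the first (edgeR adjusted p = 0.114) or second (0.119) co-culture library on control titanium, the third co-culture library on nanotopography (just above the threshold) or the first (0.0826) or the third (0.115) isolated library on control titanium. On nanotopography Irf1 had 15.9, 24.2 and 22.8 CPM under osteoclasts, against 19.2, 15.4 and 21.4 CPM in isolated cells, which overlap. The log2 fold change there was 0.17 ± 0.19 (edgeR adjusted p = 0.447), and 0.61 with the correction for GC and length (edgeR adjusted p = 0.007). The difference between the co-culture effects was not called for Irf1, with -0.39 ± 0.26 (edgeR adjusted p = 0.234). Gm17334 overlaps 907 bases of Irf1 on the opposite strand and had 101 counts in all libraries, and whether the counting used strand is not given in the sources used here.

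Irf7, which amplifies the production of type I interferon, was the only member called lower. Its co-culture libraries on nanotopography, with 5, 4 and 2 counts, were all below the low-count filter. Irf7 was tested only through the other groups, so its lower calls are given as a description. It had 0.709, 0.509 and 0.304 CPM under osteoclasts on nanotopography, against 1.69, 0.589 and 1.87 CPM in isolated cells there, and the second isolated library lay inside the range of the co-culture libraries. On control titanium it had 1.08, 1.68 and 2.86 CPM under osteoclasts, against 1.70, 1.52 and 1.35 CPM in isolated cells. The log2 fold change for co-culture on nanotopography was -1.37 ± 0.57 (edgeR adjusted p = 0.0465), and on control titanium it was 0.25 ± 0.43 (edgeR adjusted p = 0.731). The first of these calls was lost in 9 of the 12 fits that left out 1 library (edgeR adjusted p from 0.0527 to 0.173): any of the co-culture libraries on nanotopography, the first or the third isolated library on nanotopography, the second co-culture library on control titanium or any isolated library on control titanium. Within co-culture, Irf7 was lower on nanotopography than on control titanium by a log2 fold change of -1.79 ± 0.53 (edgeR adjusted p = 0.0127), a call that was lost without the third co-culture library on control titanium (edgeR adjusted p = 0.0699). With the GC and length correction neither call held, with -0.76 and -1.31 (edgeR adjusted p = 0.296 and 0.0855), and the exons of Irf7 are 55.4% GC. Irf7 overlaps 45 bases of Phrf1, a gene with 10094 counts, on the opposite strand.

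**Figure D3:**
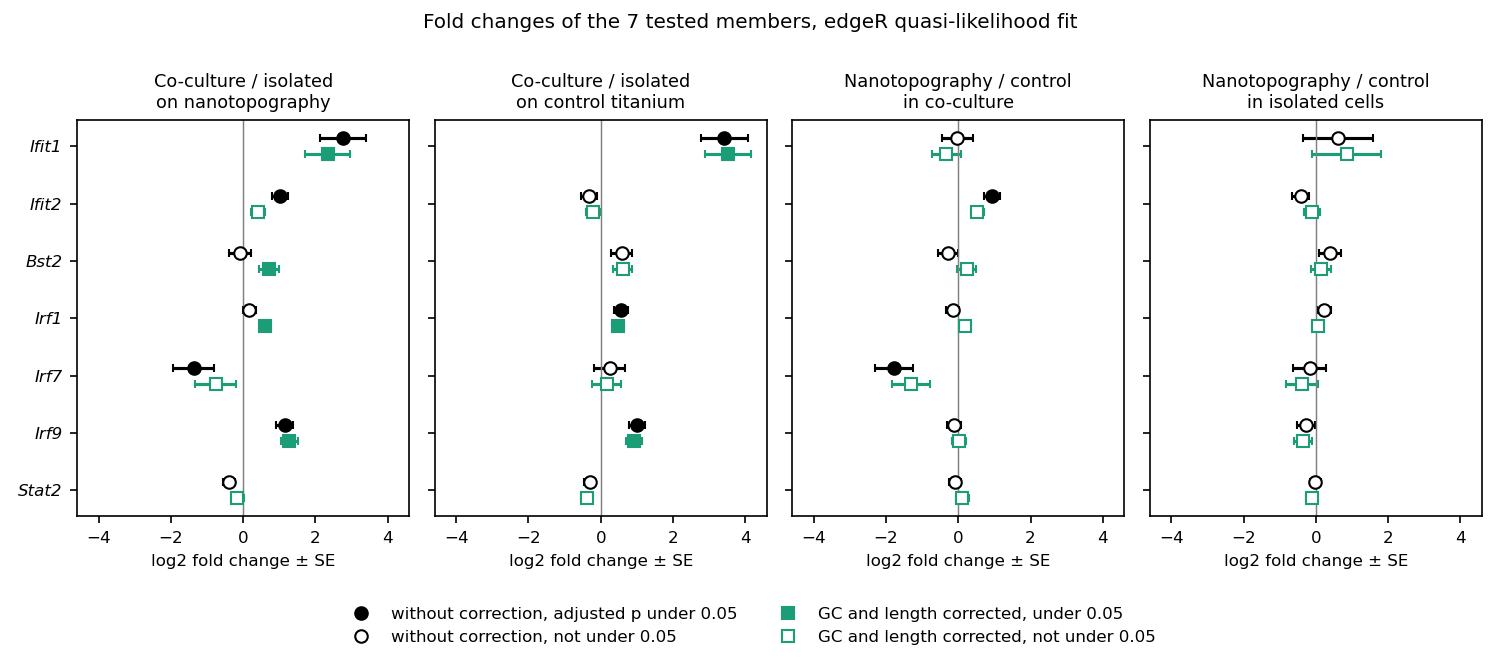
Log2 fold changes ± SE (horizontal axis) of the 7 tested members in 4 comparisons, without (circles) and with (squares) the correction for GC content and length, filled where the adjusted p was under 0.05. Ifit1 and Irf9 are filled in both co-culture comparisons with either fit, and no member is filled for nanotopography in isolated cells.

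In isolated cells, none of the 7 tested members was called for nanotopography. None had an unadjusted p below 0.05 in edgeR, and DESeq2 and limma-voom called 0 members at an adjusted p below 0.05. Log2 fold changes for nanotopography over control titanium in isolated cells ran from -0.42 ± 0.24 (Ifit2) to 0.62 ± 0.97 (Ifit1), and 9.71% of all tested genes were called. Bst2 had all 3 isolated libraries on nanotopography above all 3 on control titanium, with 0.39 ± 0.30 (edgeR adjusted p = 0.4). Within co-culture, nanotopography gave 1 member called higher, Ifit2, and 1 called lower, Irf7, where 42.0% of all genes were called (18.6% higher and 23.3% lower). With the correction neither was called, where 17.8% of all genes were. Ifit2 was also the only member whose co-culture effect differed between the surfaces by this test, where 47.8% of all genes were called (22.4% higher and 25.4% lower, and 20.7% in either direction with the correction).

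Set against each other per kilobase of exon, counted over the exons of all annotated transcripts, the members were far apart in level. For Irf7 this length, 3776 bases, took in the whole gene, so its level per kilobase may be understated. Irf1 was the highest in every group, with 5.27 ± 1.12 CPM per kb under osteoclasts on nanotopography, 4.70 ± 0.76 in isolated cells there, 5.88 ± 0.66 under osteoclasts on control titanium and 3.96 ± 0.86 in isolated cells there (SD, n = 3 each). Bst2 followed with group means of 2.66 to 4.07 CPM per kb. In both groups on nanotopography the spread of Bst2, at 3.32 ± 0.93 under osteoclasts and 3.53 ± 0.54 in isolated cells, overlapped that of Irf1. Within each of these libraries, however, Irf1 was higher than Bst2. Stat2 lay between 2.05 and 2.72 CPM per kb, and in isolated cells on control titanium it did not differ from Bst2 beyond the spread, with 2.72 ± 0.02 for Stat2 and 2.66 ± 0.40 for Bst2. Ifit2 reached 2.39 CPM per kb under osteoclasts on nanotopography and had group means of 1.16 to 1.56 otherwise. Irf9 lay at 1.53 and 1.66 CPM per kb under osteoclasts, against 0.69 and 0.82 in isolated cells. Ifit1 lay at 1.12 and 1.15 CPM per kb under osteoclasts, against 0.15 and 0.10 in isolated cells. Ifit3 stayed below 1 CPM per kb in all groups, as did Isg15 and Irf7. The osteoblast genes of the same libraries are given for scale: their 15 markers together held 45383 to 99353 CPM. That sum over 15 genes was not divided by length, so it cannot be set directly against single-gene values per kilobase.

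The makeup of the RNA moved with the groups and is set beside these results. Mitochondrial rRNA took 15.8, 8.66 and 10.2% of the counts under osteoclasts on nanotopography, against 4.54, 6.35 and 4.52% in isolated cells, and 6.73, 6.59 and 6.15% under osteoclasts on control titanium, against 9.80, 8.01 and 6.70% in isolated cells. The rRNA-like genes Gm26917 and Gm42418 took 0.350 to 0.800% under osteoclasts on nanotopography, against 3.66 to 8.33% in isolated cells, and 1.52 to 2.08% under osteoclasts on control titanium, against 2.77 to 5.46% in isolated cells. Macrophage and osteoclast transcripts also moved with co-culture. Of 24 markers of macrophages and osteoclasts, 10 had 0 counts in all 6 isolated libraries, among them Ptprc, Dcstamp, Atp6v0d2 and Calcr, which was at 0 in all 12 libraries. These 10 summed to 8.06, 16.4 and 22.5 CPM under osteoclasts on nanotopography, and to 0, 1.96 and 1.77 CPM under osteoclasts on control titanium. The summed level of all 24 was 276 to 369 CPM under osteoclasts on nanotopography, against 241 to 255 CPM in isolated cells, and 300 to 310 CPM under osteoclasts on control titanium, against 239 to 249 CPM in isolated cells. This total includes 6 markers that isolated preosteoblasts also express at a mean of 1 CPM or more, Ctsk, Mmp9 and Itgb3 among them. Itgb3 made up most of the difference in the total on control titanium, with 985, 723 and 710 counts under osteoclasts, against 333, 376 and 329. Of 9 tested markers, 1 was called higher and none lower on control titanium (10.9% and 8.72% of all tested genes). On nanotopography 6 were called higher and 1 lower (28.7% and 30.4% of all tested genes). The first co-culture library on control titanium had 0 counts of all 10 markers, and there Ifit1 had 31 counts and Irf9 9.73 CPM, the highest Irf9 level of any library. Other markers on the list were present there, among them Lyz2 with 23 counts, Cd14 with 15, Csf1r with 10 and Cd68 with 4. The 6 isolated libraries had 4 to 17 counts of Lyz2, 2 to 10 of Cd14, 8 to 22 of Csf1r and 3 to 14 of Cd68. The 15 osteoblast markers were detected in every library, and their sum was 45383 to 57508 CPM under osteoclasts on nanotopography, against 88052 to 92847 CPM in isolated cells, and 75683 to 87729 CPM under osteoclasts on control titanium, against 86005 to 99353 CPM in isolated cells. Of these 15, 9 were called lower and 2 higher on nanotopography, where 30.4% of all tested genes were lower and 28.7% higher. On control titanium 6 were lower and 1 higher, where 8.72% of all tested genes were lower and 10.9% higher. With the correction for GC and length 5 were lower and 3 higher on nanotopography, and 7 lower and 1 higher on control titanium. Of all tested genes, 20.8% were then lower and 19.0% higher on nanotopography, and 11.8% lower and 15.3% higher on control titanium. The part of RNA makeup, macrophage transcripts or osteoblast markers in the results was not tested for any member.

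**Figure D4:**
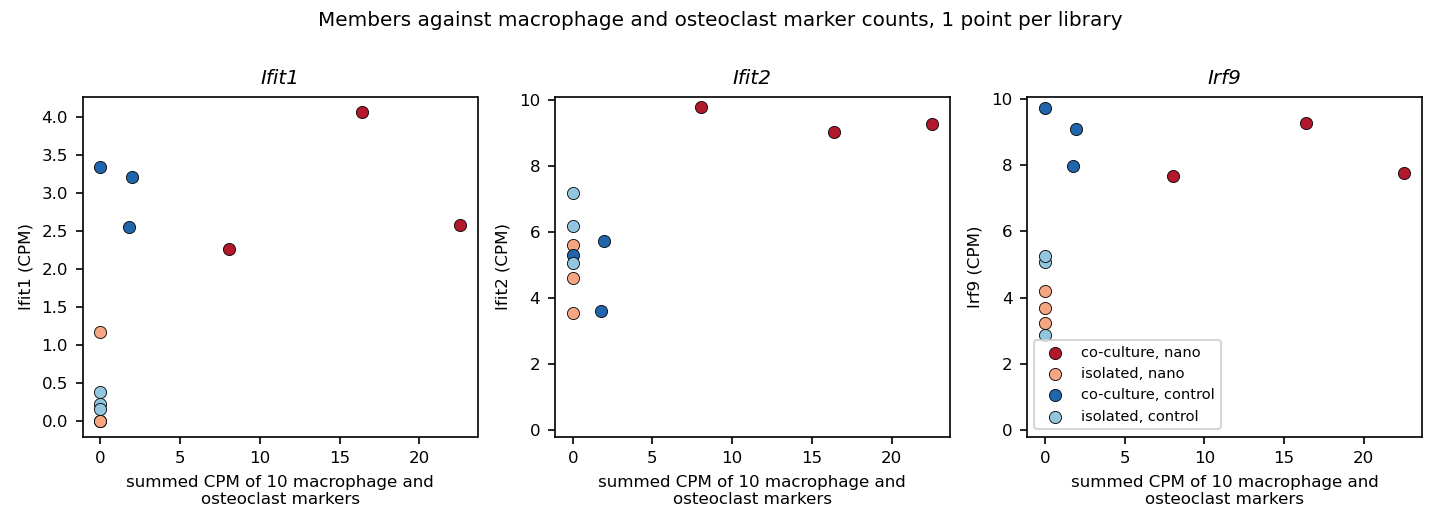
CPM of Ifit1, Ifit2 and Irf9 (vertical axes) against the summed CPM of the 10 macrophage and osteoclast markers with no count in isolated cells (horizontal axis), with 1 point per library. The vertical axes use TMM-scaled totals and the horizontal axis plain library totals. Co-culture libraries on control titanium sit between 0 and 1.96 CPM of these markers with Ifit1 at 2.56 to 3.35 CPM, beside co-culture libraries on nanotopography at 8.06 to 22.5 CPM of these markers with Ifit1 at 2.27 to 4.07 CPM.

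Other genes of the pathway were called in both directions on both surfaces, as were tested genes at large. Of 146 other interferon genes in 9 lists, 83 were tested. With co-culture on nanotopography 21 were called higher and 25 lower, with a median log2 fold change of -0.08, against 0.00 over all tested genes. With co-culture on control titanium 9 were called higher and 4 lower, with a median of 0.20, against -0.02. With the correction for GC and length, the counts were 15 higher and 9 lower on nanotopography, and 16 higher and 8 lower on control titanium, beside the shares of all tested genes given above. The medians were then 0.10 on nanotopography and 0.18 on control titanium, against 0.00 and 0.01 over all tested genes.

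The interferons themselves were near or at 0. None of 21 ligand genes passed the filter, 18 of them had no count in any library, Ifnb1 for interferon beta and Ifng for interferon gamma among these, and the others never exceeded 2 counts in a library. Of the 5 tested receptor genes, none was called on control titanium. On nanotopography Ifngr1, a chain of the interferon gamma receptor, was higher under osteoclasts by 0.41 ± 0.11 (edgeR adjusted p = 0.00459), and its partner Ifngr2 was lower, with -0.87 ± 0.12 (edgeR adjusted p = 1.59e-05). Ifngr2 had 29.8, 37.3 and 39.3 CPM under osteoclasts on nanotopography, against 63.5, 63.3 and 67.4 CPM in isolated cells, and both Ifngr1 and Ifngr2 kept their calls with the correction, at 0.43 and -0.78. Of the type I receptor chains, Ifnar1 was not called on either surface (0.05 ± 0.10 on nanotopography and 0.06 ± 0.10 on control titanium), and Ifnar2 was called lower on nanotopography, with -0.40 ± 0.13 (edgeR adjusted p = 0.0169), but not with the correction, with -0.22 (edgeR adjusted p = 0.106). The call of Ifnar2 was also lost without the first co-culture or the first isolated library on nanotopography (edgeR adjusted p = 0.0863 and 0.0611), and without the third isolated library on control titanium it was called higher there, by 0.42 (edgeR adjusted p = 0.0459).

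Of the kinases and STAT factors, Stat3, which serves cytokines of the interleukin-6 family, was higher under osteoclasts on control titanium by 0.50 ± 0.10 (edgeR adjusted p = 0.00293). On nanotopography Tyk2 was lower, with -0.87 ± 0.21 (edgeR adjusted p = 0.00171), and Jak2 was higher, with 0.55 ± 0.13 (edgeR adjusted p = 0.00213), and neither call held with the correction, with -0.20 and 0.06. Jak1 was not called on nanotopography, with -0.06 ± 0.10, but was with the correction, with -0.24 (edgeR adjusted p = 0.0312).

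Irf3, which induces interferon beta downstream of nucleic acid sensors, was called lower under osteoclasts on both surfaces, with -0.90 ± 0.22 on nanotopography and -0.67 ± 0.21 on control titanium (edgeR adjusted p = 0.00199 and 0.0349). With the correction the values were -0.08 (edgeR adjusted p = 0.762) and -0.70 (edgeR adjusted p = 0.00492), and the call on control titanium was lost in 5 of the 12 fits that left out 1 library (edgeR adjusted p from 0.0528 to 0.175), those without the first or second co-culture or the first or the third isolated library on control titanium, or the third co-culture library on nanotopography. Irf2 was higher on nanotopography by 0.41 ± 0.11 (edgeR adjusted p = 0.0039), and by 0.18 with the correction, which did not pass. Of 13 tested sensors and adaptors, 2 were higher and 4 lower on nanotopography and none was called on control titanium. The shares of all tested genes were 28.7% higher and 30.4% lower on nanotopography, and 10.9% and 8.72% on control titanium. With the correction 1 was higher and none lower on nanotopography (19.0% and 20.8% of all tested genes). Corrected counts on control titanium were 1 higher and 1 lower (15.3% and 11.8% of all tested genes). Tbk1, a kinase that activates Irf3, was higher on nanotopography by 0.73 ± 0.11 and by 0.45 with the correction (edgeR adjusted p = 3.33e-05 and 5.31e-04). The adaptors Myd88 and Mavs were lower there, with -0.64 ± 0.13 and -0.33 ± 0.13 (edgeR adjusted p = 6.40e-04 and 0.0392). Neither held with the correction, with -0.16 for Myd88 and 0.16 for Mavs, and the call of Mavs was lost in 9 of the 12 fits that left out 1 library (edgeR adjusted p from 0.0516 to 0.171), those without any co-culture library on control titanium, the first or the third co-culture library on nanotopography, any isolated library on nanotopography or the third isolated library on control titanium.

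Negative regulators were called in both directions, as were tested genes at large. Of 8 tested, 4 were higher and 3 lower on nanotopography, where 28.7% of all tested genes were higher and 30.4% lower. On control titanium 2 were higher and 2 lower (10.9% and 8.72% of all tested genes). With the correction 3 were higher and 2 lower on nanotopography (19.0% and 20.8% of all tested genes). Corrected counts on control titanium were 3 higher and 3 lower (15.3% and 11.8% of all tested genes). Socs1, which blocks the kinases of the pathway, had 1.14, 1.15 and 1.83 CPM under osteoclasts on nanotopography, against 4.21, 2.80 and 5.27 CPM in isolated cells. On control titanium Socs1 had 0.865, 1.68 and 2.11 CPM under osteoclasts, against 3.13, 3.96 and 3.36 CPM in isolated cells. No co-culture library reached the isolated libraries of its surface, and the log2 fold change was -1.57 ± 0.37 on nanotopography and -1.21 ± 0.35 on control titanium (edgeR adjusted p = 0.00145 and 0.0236). With the correction it was -0.61 (edgeR adjusted p = 0.166) and -1.22 (edgeR adjusted p = 0.00851), and the call on control titanium was lost without its first or second co-culture library or its second isolated library (edgeR adjusted p from 0.0566 to 0.122). Usp18, which removes Isg15 from proteins and was not tested, had 8 counts under osteoclasts and 1 in isolated cells on nanotopography, and 12 and 4 on control titanium. The corepressors Irf2bp1 and Irf2bp2 moved apart on both surfaces. Irf2bp1 was lower, with -2.59 ± 0.18 on nanotopography and -1.01 ± 0.17 on control titanium, and Irf2bp2 was higher, with 0.94 ± 0.10 and 0.46 ± 0.10. Irf2bp1 and Irf2bp2 kept these calls with the correction, at -1.13 and -0.85 for Irf2bp1 and 1.40 and 0.38 for Irf2bp2. The phosphatase Ptpn1 was lower on nanotopography, with -1.12 ± 0.11, and -0.53 with the correction (edgeR adjusted p = 4.10e-07 and 1.38e-04).

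Among 30 other tested antiviral effectors, 11 were higher and 6 lower on nanotopography (28.7% and 30.4% of all tested genes). On control titanium 3 were higher and 1 lower (10.9% and 8.72% of all tested genes). With the correction 8 were higher and 2 lower on nanotopography (19.0% and 20.8% of all tested genes). Corrected counts on control titanium were 6 higher and 2 lower (15.3% and 11.8% of all tested genes). Ifi204, a DNA-binding protein of the interferon-inducible p200 family, had 54.2, 47.1 and 40.9 CPM under osteoclasts on nanotopography, against 15.2, 15.4 and 15.5 CPM in isolated cells. On control titanium Ifi204 had 36.6, 29.4 and 31.3 CPM under osteoclasts, against 18.7, 17.8 and 14.6 CPM in isolated cells. The groups were well apart on both surfaces, with log2 fold changes of 1.62 ± 0.14 and 0.92 ± 0.14 (edgeR adjusted p = 1.50e-07 and 2.16e-04), and 0.92 and 1.12 with the correction (edgeR adjusted p = 9.54e-06 and 1.50e-06). Dtx3l, a ubiquitin ligase, was higher on nanotopography by 1.02 ± 0.16 and Shisa5 was lower, with -1.03 ± 0.18 (edgeR adjusted p = 5.32e-05 and 1.06e-04), and both kept their calls with the correction, at 0.67 and -0.42.

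Genes typical of the interferon gamma response were mostly too low to test: 15 of 20 GTPases and chemokines did not pass the filter. Of the 5 tested, Irgm1 was called higher on nanotopography, by 0.61 ± 0.16 (edgeR adjusted p = 0.00355), and did not hold with the correction, with 0.32 (edgeR adjusted p = 0.112). Gbp2 and Irgm2 were not called on either surface. Of 14 tested antigen presentation genes, 8 were lower and none higher on nanotopography (30.4% and 28.7% of all tested genes). On control titanium 3 were higher and none lower (10.9% and 8.72% of all tested genes). With the correction 2 were higher and 3 lower on nanotopography (19.0% and 20.8% of all tested genes). Corrected counts on control titanium were 5 higher and none lower (15.3% and 11.8% of all tested genes). Tap1, a chain of the peptide transporter that feeds MHC class I, had 60.7, 71.6 and 60.9 CPM under osteoclasts on control titanium, against 25.2, 25.1 and 39.4 CPM in isolated cells, and on nanotopography 27.8, 40.1 and 37.3 CPM under osteoclasts, against 40.9, 31.5 and 41.9 CPM in isolated cells. Tap1 was higher on control titanium by 1.12 ± 0.18 (edgeR adjusted p = 2.81e-04) and was not called on nanotopography, with -0.12 ± 0.18, although it was with the correction, with 0.50 (edgeR adjusted p = 0.00537). The MHC class I genes H2-K1 and H2-D1 were lower on nanotopography, with -1.08 ± 0.14 and -0.92 ± 0.13 (edgeR adjusted p = 9.29e-06 and 2.04e-05). With the correction H2-K1 held, with -0.47 (edgeR adjusted p = 0.00338), and H2-D1 did not, with -0.19 (edgeR adjusted p = 0.138). Reads of H2-K1 and H2-D1 can be split between near-identical class I genes in counting.

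**Figure D5:**
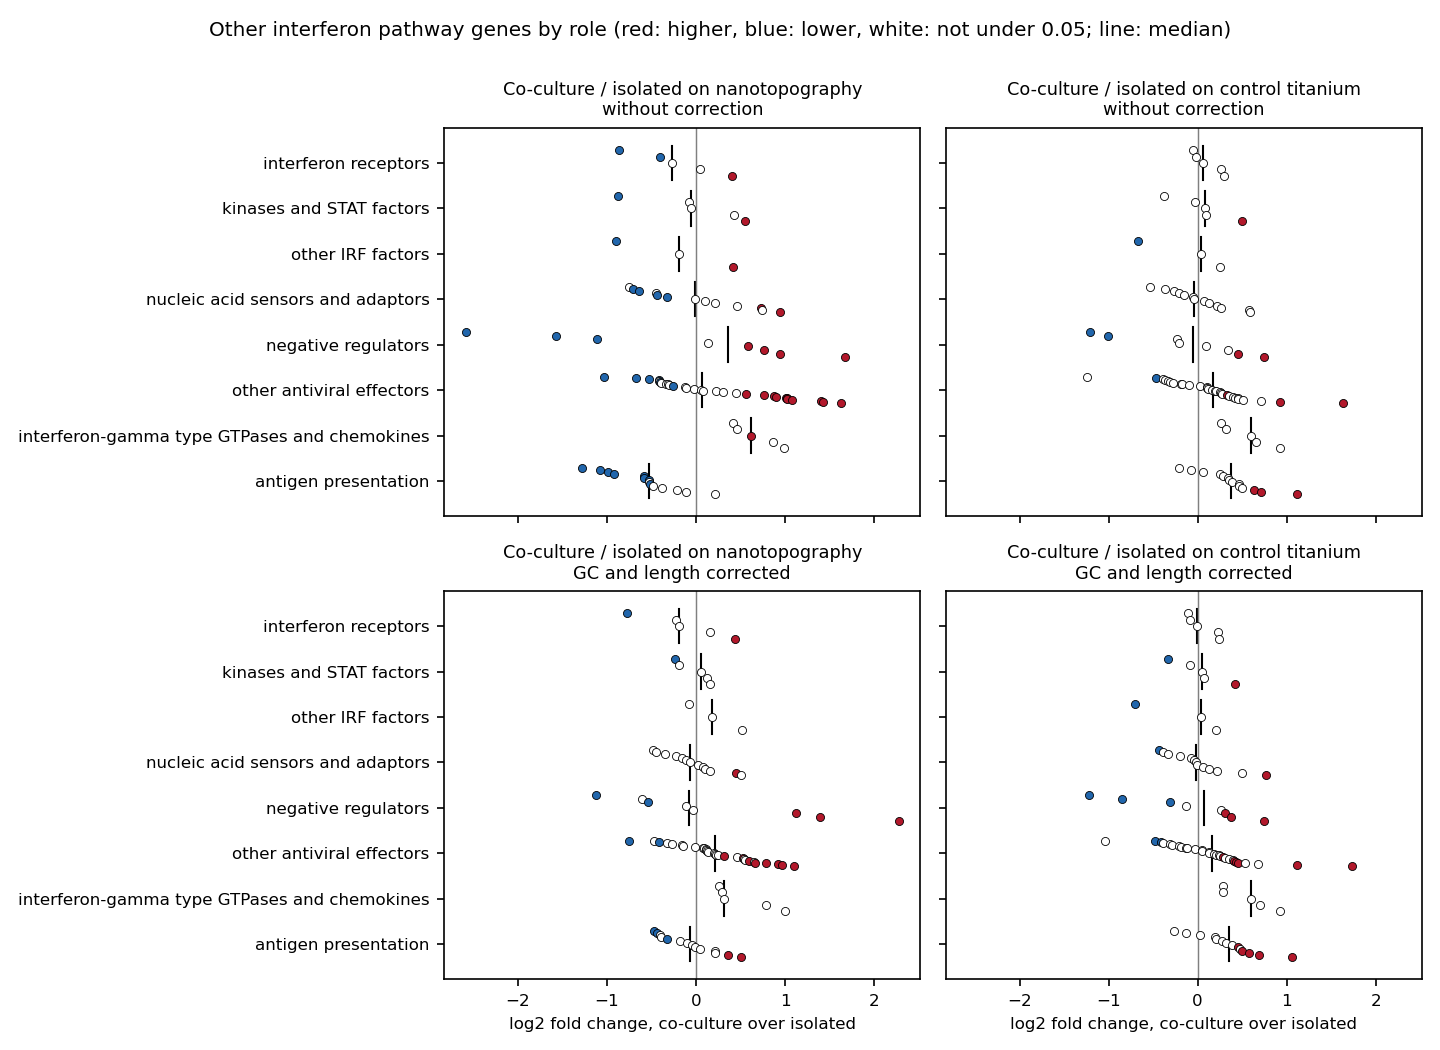
Log2 fold changes of co-culture over isolated cells (horizontal axis) for the 83 tested pathway genes that are not members, by role (rows), with red for called higher, blue for called lower, white for not called and a line at the median, without (top) and with (bottom) the correction for GC content and length. On nanotopography 21 points are red and 25 blue without the correction, and 15 red and 9 blue with it.

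The genes outside the members whose levels ran most like the mean of Ifit1, Ifit2 and Ifit3 were not in the pathway lists. Across the 12 libraries, the Pearson correlation of log2 CPM with the mean log2 CPM of Ifit1, Ifit2 and Ifit3 was highest, among 11021 protein-coding genes, for Rpl22 (0.977), Ppfibp1 (0.975), Sbf2 (0.967), Arhgap28 (0.966) and Acadsb (0.964), none of which is in the pathway lists. The 12 libraries share 4 groups, so their values are not independent, and the measure is given as a description. By the same measure Ifit1 itself stood at 0.950, Ifit3 at 0.923 and Ifit2 at 0.667, so the mean followed Ifit2 least of these genes. Ifit1 and Ifit3 had few reads, so the prior count of 2 weighs on their log values. Of the other members Irf9 stood at 0.833, Isg15 at 0.417, Irf1 at 0.384 and Bst2 at 0.124, while Stat2 stood at -0.59 and Irf7 at -0.58. Rpl22 had 223, 225 and 232 CPM under osteoclasts on nanotopography, against 96.6, 135 and 101 CPM in isolated cells, and 202, 202 and 157 CPM under osteoclasts on control titanium, against 136, 134 and 120 CPM in isolated cells.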

How the data were processed

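The authors deposited gene-level raw counts for 12 libraries, in separate files and without normalization. The submitters' processing notes name the build mm10 and the tools STAR 2.4, HTSeq, DESeq2, cutadapt and FastQC 0.63 without their roles; strand use and annotation release are not given in the sources used here. Per the labels' protocols, libraries were built with SMARTer chemistry from total RNA. In 11 of 12 files the gene list ends within a line, and the 52654 genes complete in all files were used. Genes were named by GENCODE M21.

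Tests used edgeR 4.0.16 in R 4.3.3: filterByExpr, TMM scaling, a quasi-likelihood model with 4 group means over all 12 libraries, and Benjamini-Hochberg adjustment over 13340 genes. The biological coefficient of variation was 12.3%. The log scale for likeness used a prior count of 2. Intervals for low counts are exact binomial at 95% and hold for counting error alone, as no molecular identifiers mark the original molecules. The GC and length correction fitted a loess curve (span 0.3) per library as an offset. Alternatives used DESeq2 1.42.0 and limma 3.58.1 (voom), other scalings and filters, a replicate block, only the groups compared and leaving out each library. A further alternative, leaving out mitochondrial and rRNA-like genes, was added after the data were seen. The fits were tested on simulated data. Members and lists were chosen with earlier results of these data known. Other pathway genes are named by a rule: the 3 tested genes per list with the smallest p in the 4 comparisons of 2 groups, and Ifnar1, Ifnar2, Jak1, Tyk2, Ifnb1, Usp18 and Socs1; 1 gene that the rule also takes is not reported here. Ifng is also named, and Ifit3b, Ifit1bl1 and Ifit1bl2 as neighbours. Motifs were searched in RefSeq promoter windows (GRCm38.p6). No replicates were identical: their counts differed beyond sampling noise in every pair (chi-square per degree of freedom 5.37 to 28.5).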

Additional observations from a re-analysis of the deposited data

Results flagged for a closer look

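Ifit2 was singled out because its co-culture effect differed between the surfaces: the log2 effect was larger on nanotopography than on control titanium by 1.35 ± 0.32 (edgeR interaction test, adjusted p = 0.00277), with 3 of 3 co-culture libraries above all isolated libraries on nanotopography and overlapping groups on control titanium. With the correction for GC content and length this difference was 0.64 (edgeR adjusted p = 0.116). Of all tested genes, 47.8% had such a difference without the correction and 20.7% with it.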

How the results depend on the processing

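Depth limits the results for Ifit1, Ifit3, Isg15 and Irf7, which had few reads. Of the log2 fold changes of the 7 tested members in 5 comparisons, 332 values under the 11 alternatives other than leaving out a library kept their direction and side of the threshold, 16 lost the call, 2 gained it and 22 changed sign; with 1 library left out the numbers were 385, 15, 3 and 17. The calls of Irf9 under co-culture held on both surfaces under all of these alternatives. Those of Ifit1 did too, in a gene that passed the low-count filter only through its co-culture libraries. The cause of a change was not tested for any result.

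The count of members called for nanotopography within co-culture was 2. It was 0 with the GC and length correction, and 0 with that correction and the replicate block. It was 1 when only the groups compared were fitted, where Irf7 did not pass the low-count filter and was not tested. For the difference between co-culture effects it was 1, and 0 with the correction, with or without the block. All genes called with the correction were 734 for nanotopography in isolated cells, 2376 for nanotopography in co-culture and 2755 for the difference between co-culture effects, against 1295, 5599 and 6383 without it. With the correction and the block together they were 492, 2128 and 2493, and 5056 for co-culture on nanotopography, against 7892. Without the low-count filter 2100 genes were called for nanotopography in isolated cells.

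With the correction, and with the correction and the block, the log2 fold change took the other sign for Bst2 in co-culture on nanotopography (0.71 and 0.70), for nanotopography in co-culture (0.24 and 0.23) and in the difference between co-culture effects (0.10 and 0.10); for Irf1 in the last pair of comparisons (0.18 and 0.18, 0.13 and 0.12); for Stat2 in the same pair (0.12 and 0.12, 0.23 and 0.23); for Irf9 with nanotopography in co-culture (0.0070 and 0.012); for Mavs (0.16 and 0.16) and Tap1 (0.50 and 0.50) in co-culture on nanotopography; and for Ifnar1 in co-culture on control titanium (-0.0070 and -0.0094). Under limma-voom Ifit1 was at -0.65 for nanotopography in isolated cells and 0.59 in the difference, and under upper-quartile scaling at 0.018 for nanotopography in co-culture. Stat2 for nanotopography in isolated cells was at 0.00095 with RLE scaling, 0.00078 with DESeq2 and 0.0032 without mitochondrial and rRNA-like genes. Of these reversals, those that passed the test afterwards were Tap1 on nanotopography and, with the correction but not with the block added, Bst2 in co-culture on nanotopography. Irf1 on control titanium was not called with upper-quartile scaling (0.51, edgeR adjusted p = 0.0656), and Irf7 in co-culture on nanotopography was not called without the filter (-1.39, edgeR adjusted p = 0.0549), with DESeq2 (-1.41, adjusted p = 0.0595) or with limma-voom (-1.20, adjusted p = 0.086).

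With 1 library left out, all genes called ran from 1436 to 2976 for co-culture on control titanium, from 3 to 2877 for nanotopography in isolated cells and from 3274 to 5944 for nanotopography in co-culture, and members called from 1 to 2 both for nanotopography in co-culture and for the difference. Log2 fold changes that took both signs ran, for nanotopography in isolated cells, from -4.03 to 1.16 (Ifit1, where the lowest value has isolated cells on nanotopography at 0 counts and depends on the prior count), -0.45 to 0.21 (Irf7) and -0.17 to 0.11 (Stat2). For nanotopography in co-culture they ran from -0.34 to 0.13 (Ifit1), -0.29 to 0.0049 (Irf1) and -0.23 to 0.018 (Stat2), and for the difference from -1.20 to 3.998 (Ifit1) and -0.21 to 0.070 (Stat2). For co-culture on nanotopography they ran from -0.26 to 0.097 (Bst2), -0.12 to 0.016 (Jak1) and -0.22 to 0.021 (Tap1), and on control titanium from -0.16 to 0.57 (Irf7) and -0.17 to 0.089 (Tyk2). The difference for Irf7 passed the test without the first co-culture library on control titanium (-1.93, edgeR adjusted p = 0.0331) or the second isolated library on nanotopography (-2.01, edgeR adjusted p = 0.0211).

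The labels do not say that replicate numbers pair the libraries. The correlation of deviations from the group means between same-numbered libraries ran from -0.39 to 0.30. Between the co-culture groups, each library on nanotopography correlated best with its own number, at 0.30, 0.13 and 0.08. In the other comparisons this did not hold for every library. With the replicate block Irf1 on control titanium was at 0.56 (edgeR adjusted p = 0.0519) and Irf7 in co-culture on nanotopography at -1.35 (edgeR adjusted p = 0.0575), and no other member's call changed.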
